A study of Mus musculus with 12 samples.

Results

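The UDP-glucuronosyltransferases (UGTs) of mouse duodenum were followed as 10 genes chosen by name, the 5 Ugt1a genes Ugt1a1, Ugt1a6a, Ugt1a6b, Ugt1a7c and Ugt1a9 and the 5 Ugt2 genes Ugt2a3, Ugt2b34, Ugt2b35, Ugt2b36 and Ugt2b5. All 10 stood in both deposited count tables, which list 28066 genes for HFD and Chow and 28731 genes for HFD PCN and HFD Vehicle, with 26121 genes in both. Each of the 10 passed the filter on low counts in every comparison.

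RNA was sequenced in 12 duodenal libraries of C57BL/6N mice, 3 in each of 4 groups, after 18 weeks of diet from 6 weeks of age. The HFD PCN group had a high-fat diet (HFD) and then, on each of 4 days, 50 mg/kg pregnenolone 16α-carbonitrile (PCN) into the peritoneum, a steroid that activates PXR, the pregnane X receptor of rodents. The HFD Vehicle group had HFD and then 4 daily injections of 30% DMSO in corn oil, the HFD group had HFD with no treatment listed, and the Chow group had regular chow with no treatment listed. Strain is the only genotype given. The libraries are numbered 5, 11 and 27 in HFD PCN, 23, 50 and 55 in HFD Vehicle, 4, 30 and 38 in HFD and 8, 17 and 19 in Chow, and values of single libraries follow that numbering. Nothing in the labels says that libraries came from separate animals, so the p-values may measure only the spread between these samples.

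UGTs sit in the membrane of the endoplasmic reticulum and join glucuronic acid, taken from UDP-glucuronic acid, to bilirubin, steroids, bile acids, drugs and plant phenols, which makes them more soluble in water and ready for export. In the gut wall they conjugate part of an oral drug before it reaches the liver. The Ugt1a genes form 1 locus in which every gene has a first exon of its own, coding for the part that binds the substrate, spliced to later exons that all share. The Ugt2 genes are separate genes in a cluster, each with a full set of exons.

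The 5 Ugt1a genes lie on the plus strand of chromosome 1 in GRCm38, with Ugt1a9 (ENSMUSG00000090175) at chr1:88070800-88218997, Ugt1a7c (ENSMUSG00000090124) at chr1:88095062-88220002, Ugt1a6b (ENSMUSG00000090145) at chr1:88103252-88219003, Ugt1a6a (ENSMUSG00000054545) at chr1:88134809-88218997 and Ugt1a1 (ENSMUSG00000089960) at chr1:88211959-88218997. The coding part of exons 2 to 5 was 1 sequence of 735 bases in all 5 genes. The joins of exon 1 to exon 2 are shown because they are where these transcripts stop being distinct. The last 40 bases of exon 1 are in lower case and the first 40 bases of exon 2 (chr1:88215044-88215083) in capitals, from GENCODE M21 transcripts.
Ugt1a1 exon 1 to exon 2: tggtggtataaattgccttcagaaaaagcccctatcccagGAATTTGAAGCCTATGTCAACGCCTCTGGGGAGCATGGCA
Ugt1a6a exon 1 to exon 2: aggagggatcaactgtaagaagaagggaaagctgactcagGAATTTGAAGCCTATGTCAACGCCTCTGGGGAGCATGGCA
Ugt1a6b exon 1 to exon 2: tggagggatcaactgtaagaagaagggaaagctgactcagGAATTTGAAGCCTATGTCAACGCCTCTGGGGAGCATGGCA
Ugt1a7c exon 1 to exon 2: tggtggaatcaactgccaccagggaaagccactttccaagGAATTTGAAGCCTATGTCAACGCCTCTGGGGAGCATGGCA
Ugt1a9 exon 1 to exon 2: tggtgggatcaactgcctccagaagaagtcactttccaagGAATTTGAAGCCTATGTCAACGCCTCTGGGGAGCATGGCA
To the right of the join the 5 sequences are identical, and to the left Ugt1a6a and Ugt1a6b are close to each other. Over the whole coding part of exon 1, Ugt1a6a and Ugt1a6b had 97% identity, Ugt1a7c and Ugt1a9 80.7%, and the other 8 pairs 57% to 61%. Reads of Ugt1a6a and Ugt1a6b may therefore have been split between them.

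How many bases a Ugt1a gene has to itself decides how much of its count can be its own. Of 2224 exonic bases of Ugt1a1, 385 were in no other annotated gene, partly because Gm20528 overlaps 528 bases of its first exon on the minus strand. Ugt1a6b had 938 such bases, Ugt1a9 879 and Ugt1a7c 1915. Of those of Ugt1a7c, 917 lie in its first exon and 998 at its 3′ end, past the end of the other Ugt1a members. These 998 bases begin where the annotation of the others ends. RNA of any Ugt1a gene that runs past that end would also fall there. Ugt1a6a had 2142, but 619, 255 and 1046 of these lie between the shared exons, where unspliced RNA of any Ugt1a gene would also fall. The Ugt2 members shared no exonic base with another gene. They lie on chromosome 5, with Ugt2b34 (ENSMUSG00000029260) at chr5:86889767-86906937, Ugt2b35 (ENSMUSG00000035811) at chr5:87000860-87013275, Ugt2b36 (ENSMUSG00000070704) at chr5:87065927-87092555, Ugt2b5 (ENSMUSG00000054630) at chr5:87124960-87140318 and Ugt2a3 (ENSMUSG00000035780) at chr5:87324972-87337195, all on the minus strand except Ugt2b35. Whether the counting used strand, and what it did with reads that touch several genes, was not given in the sources used here, so the separate levels of the Ugt1a members are uncertain.

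**Figure D1:**
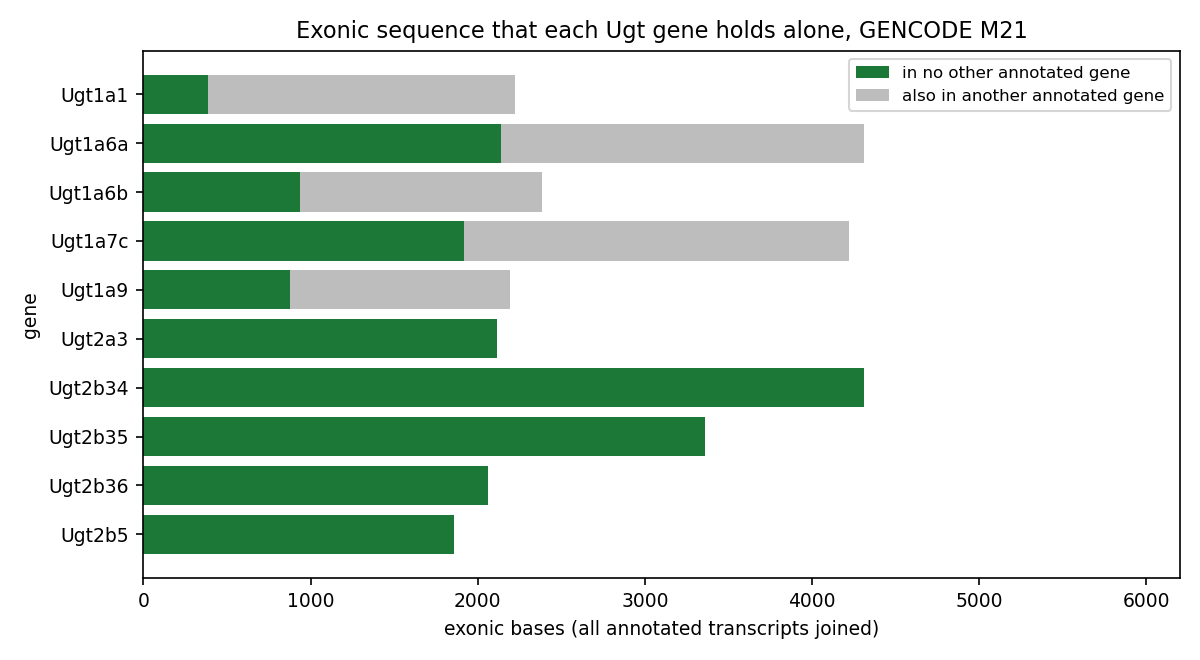
Exonic bases of each Ugt gene, in bases, split into those in no other annotated gene (green) and those also in another gene (grey). Ugt1a1 has 385 bases of its own and Ugt2b34 4312.

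Within Ugt2, likeness of sequence is a limit for Ugt2b5, whose coding sequence had 97% identity with that of Ugt2b38 and 94.7% with that of Ugt2b37. Ugt2b35, Ugt2b36 and Ugt2b5 had 87.7% to 88.4% identity with each other. Ugt2b34 had at most 75.1% identity with any Ugt2 gene compared, and Ugt2a3 at most 69.3%. Ugt2b38 itself averaged 2.85 ± 2.29 counts per 1000000 of library size (CPM) in HFD PCN and 2.55 ± 3.78 CPM in HFD Vehicle (SD, n = 3 each).

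The stretch before the start of each gene was read from RefSeq promoters of GRCm38.p6, which were found for 9 of the 10 genes. Those of Ugt1a1 and of the 3 genes that edgeR called in HFD PCN against HFD are shown, 250 bases each, ending at the base before the start that RefSeq gives. For Ugt2b5, Ugt1a7c and Ugt1a9 that start lies 22, 61 and 21 bases upstream of the deposited one, and for the other 6 both are the same. Capitals mark the receptor half-sites AGTTCA and AGGTCA, 6 letters that receptors of the PXR kind can read, on either strand, and the window of Ugt2a3 holds neither.
Ugt1a1 promoter, chr1:88211709-88211958, plus strand: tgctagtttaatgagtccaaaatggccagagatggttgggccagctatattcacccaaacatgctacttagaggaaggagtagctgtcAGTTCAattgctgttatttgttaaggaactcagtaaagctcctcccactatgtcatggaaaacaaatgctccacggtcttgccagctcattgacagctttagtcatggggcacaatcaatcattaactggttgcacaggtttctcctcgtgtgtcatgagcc
Ugt2a3 promoter, chr5:87337196-87337445, minus strand: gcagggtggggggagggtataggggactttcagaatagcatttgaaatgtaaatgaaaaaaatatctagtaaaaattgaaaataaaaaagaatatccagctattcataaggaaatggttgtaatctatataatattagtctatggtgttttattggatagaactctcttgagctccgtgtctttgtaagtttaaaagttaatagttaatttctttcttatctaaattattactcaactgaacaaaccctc
Ugt2b35 promoter, chr5:87000610-87000859, plus strand: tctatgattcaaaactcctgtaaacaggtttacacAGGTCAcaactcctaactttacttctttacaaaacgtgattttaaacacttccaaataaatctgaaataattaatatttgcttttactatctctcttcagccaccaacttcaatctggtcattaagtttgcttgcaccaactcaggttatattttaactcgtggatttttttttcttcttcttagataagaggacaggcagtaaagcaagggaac
Ugt2b5 promoter, chr5:87140341-87140590, minus strand: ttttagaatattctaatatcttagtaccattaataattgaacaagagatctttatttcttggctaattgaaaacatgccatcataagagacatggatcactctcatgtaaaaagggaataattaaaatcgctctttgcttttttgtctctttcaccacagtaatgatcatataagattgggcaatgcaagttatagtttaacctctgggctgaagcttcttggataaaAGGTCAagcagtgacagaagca
AGTTCA was found in the promoter of Ugt1a1 alone among the 9 and in 11.8% of 32851 RefSeq promoters. AGGTCA was found in 5 of the 9 (Ugt1a7c, Ugt1a9, Ugt2b35, Ugt2b36 and Ugt2b5) and in 14% of all. Ugt2b36 and Ugt2b5 hold AGGTCA at 25 and 22 bases before the RefSeq start. The direct repeats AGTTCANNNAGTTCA and AGTTCANNNNAGTTCA and the everted repeat TGAACTNNNNNNAGTTCA, exact forms of PXR sites, were in none of the 9 windows and in 0%, 0.00913% and 0.00609% of all promoters. The repeats contain the letters of AGTTCA, and the matches in the members did not overlap each other. Repeats with AGGTCA were not searched. Because the exact repeats are this rare everywhere, their absence from the 9 windows tells little.

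Total counts were 4676718 to 20684369 per library, with a median of 15404357. The extraction protocol names liver pieces although the tissue label is duodenum. The enterocyte gene Vil1 stood at 912.5 to 2489 CPM and albumin, Alb, at 0.104 to 1.11 CPM, and of 12 hepatocyte markers 7 were in both tables, with a summed level of 1.69 to 5.23 CPM. CPM of Vil1, Alb and Hsp90aa1 in this paragraph are per total count of the library, without TMM factors. All other CPM of single libraries use TMM factors over all 12 libraries. HFD Vehicle 23 stood apart, with 33.6% of its counts in mitochondrial ribosomal RNA, against 8.69% to 19.2% in the others, and it and HFD Vehicle 50 had 1427 and 1453 CPM of the chaperone gene Hsp90aa1, against 60.6 to 465 CPM elsewhere. Fold changes of the members against HFD Vehicle, and the medians of the gene lists, are given with and without these libraries. Leaving out both leaves HFD Vehicle 55, the library with the fewest counts (4676718), alone in its group. For that fit only effect sizes are given.

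The group means of 9 of the 10 members were highest in HFD PCN and next highest in Chow, with HFD Vehicle and HFD below. The exception was Ugt1a9, highest in Chow. Of the lower groups, HFD was above HFD Vehicle for 6 members and below it for 4, and for all 10 their libraries overlapped.

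Ugt1a1, the main enzyme for bilirubin, had 186.1, 168.9 and 99.9 CPM in HFD PCN, 61.8, 70.9 and 78.3 CPM in HFD Vehicle, 62.7, 61.9 and 76.5 in HFD and 102.5, 96.8 and 116.5 CPM in Chow. All 3 HFD PCN libraries were above all HFD Vehicle and HFD libraries, but HFD PCN 27 fell among the Chow libraries. Ugt1a7c, an enzyme for phenols and polycyclic compounds, had 257.5, 253.3 and 128.8 CPM in HFD PCN, 75.6, 99.3 and 157.3 CPM in HFD Vehicle, 108.2, 107.5 and 132.8 in HFD and 158.6, 124.7 and 129.4 CPM in Chow. HFD PCN 5 and 11 stood far above every other library, while HFD PCN 27 lay inside the range of all the other groups.

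Ugt1a6a, an enzyme for planar phenols, had 25.4, 20.4 and 11.9 CPM in HFD PCN, 9.25, 9.13 and 11.8 CPM in HFD Vehicle, 12.5, 7.11 and 8.80 in HFD and 18.0, 8.59 and 19.3 CPM in Chow. HFD PCN 27 was barely above the highest HFD Vehicle library. Its near copy Ugt1a6b had 9.48, 6.55 and 7.13 CPM in HFD PCN, 6.14, 4.83 and 6.51 CPM in HFD Vehicle, 7.84, 5.29 and 5.13 in HFD and 7.02, 5.44 and 7.66 CPM in Chow, on 32 to 190 reads. Ugt1a9, whose human counterpart conjugates phenols such as propofol, had 7.18, 3.31 and 2.64 CPM in HFD PCN, 1.55, 2.92 and 4.07 CPM in HFD Vehicle, 3.46, 2.16 and 4.005 in HFD and 7.14, 5.44 and 4.011 CPM in Chow, on 15 to 144 reads. For Ugt1a9 the HFD PCN value rests on library 5 alone, and every Chow library was above every HFD library, with 4.011 CPM in Chow 19 close to 4.005 CPM in HFD 38.

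Ugt2b34 had 1548, 1524 and 1024 CPM in HFD PCN, 210.3, 568.4 and 840.4 CPM in HFD Vehicle, 486.9, 682.1 and 643.6 in HFD and 784.5, 680.0 and 760.3 CPM in Chow. It had the most counts of the members in every library, and every HFD PCN library was above the other 9. Ugt2a3, whose human counterpart conjugates bile acids, had 174.3, 178.0 and 146.8 CPM in HFD PCN, 43.9, 94.9 and 113.1 CPM in HFD Vehicle, 60.4, 74.7 and 91.1 in HFD and 117.6, 119.6 and 142.2 CPM in Chow. For Ugt2a3 all HFD PCN libraries were above all Chow libraries, and all Chow libraries above all HFD and HFD Vehicle libraries.

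Ugt2b35 had 92.8, 93.3 and 70.6 CPM in HFD PCN, 24.2, 45.7 and 53.7 CPM in HFD Vehicle, 46.6, 36.2 and 43.6 in HFD and 52.0, 46.5 and 57.1 CPM in Chow. Ugt2b5, of a subfamily that conjugates steroids, had 60.1, 75.6 and 52.0 CPM in HFD PCN, 10.3, 19.0 and 42.1 CPM in HFD Vehicle, 19.6, 25.8 and 33.2 in HFD and 32.8, 30.4 and 24.1 CPM in Chow. For both, the 3 HFD PCN libraries were the highest of the 12. Ugt2b36 had 8.73, 9.30 and 10.6 CPM in HFD PCN, 2.61, 3.82 and 8.75 CPM in HFD Vehicle, 4.38, 3.53 and 6.88 in HFD and 9.20, 6.01 and 7.05 CPM in Chow, on 19 to 175 reads.

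Some libraries stood at the same end of their group for most members. HFD PCN 27 was the lowest of its group for 8 of the 10 members, HFD Vehicle 23 the lowest of its group for 8, and HFD Vehicle 55 the highest of its group for all 10. Over the 12 libraries Pearson's r of log2 CPM between members was 0.342 to 0.952 with a median of 0.77 over 45 pairs, a description of libraries that also share depth and makeup.

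**Figure D2:**
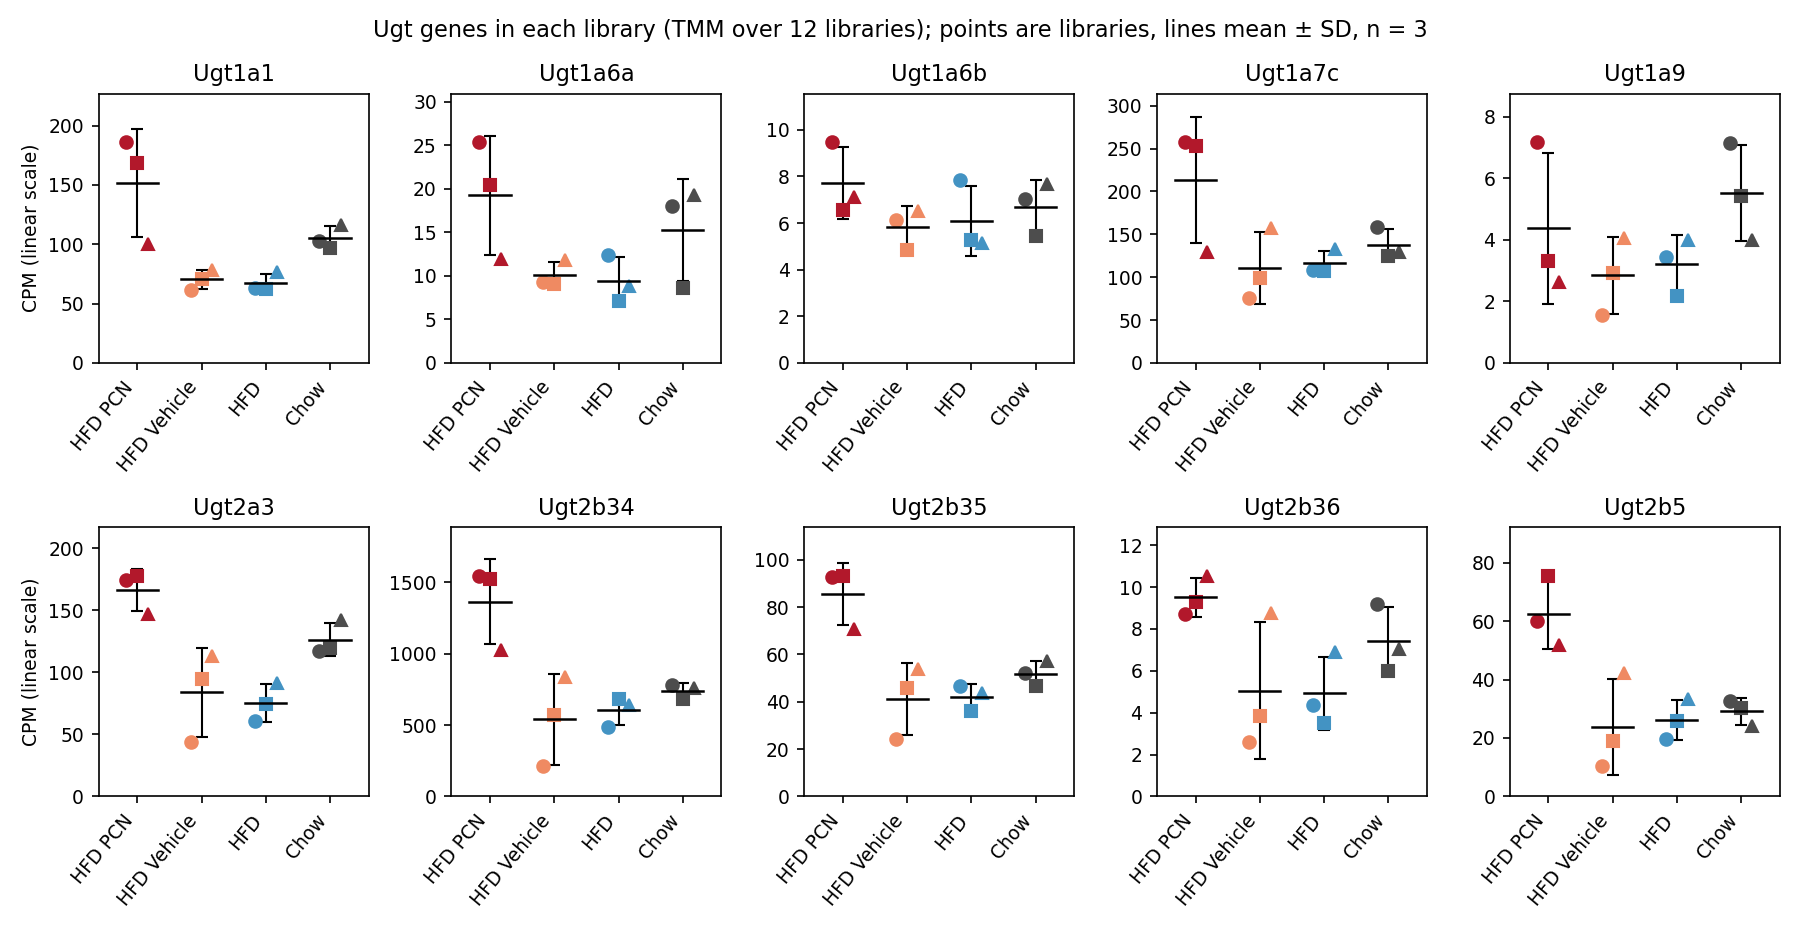
CPM of each of the 10 Ugt genes (linear axes from 0, TMM over 12 libraries) in HFD PCN, HFD Vehicle, HFD and Chow, with 1 point per library and lines for the mean ± SD (n = 3). HFD PCN has the highest mean for all but Ugt1a9, and HFD Vehicle spreads widely for the Ugt2 genes, as for Ugt2b34 at 210.3 to 840.4 CPM.

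Levels of different genes were compared per kb of exon. Per kb of all exonic sequence, Ugt2b34 averaged 316.6 ± 68.7 CPM per kb in HFD PCN, 125.2 ± 73.3 in HFD Vehicle, 140.1 ± 24.0 in HFD and 172.0 ± 12.7 in Chow (SD, n = 3 each). Ugt2a3 averaged 78.6 ± 8.05 CPM per kb in HFD PCN, 39.7 ± 16.9 in HFD Vehicle, 35.6 ± 7.25 in HFD and 59.8 ± 6.45 in Chow. Ugt1a1 came to 68.2 ± 20.5 CPM per kb in HFD PCN, 31.6 ± 3.72 in HFD Vehicle, 30.2 ± 3.68 in HFD and 47.4 ± 4.56 in Chow. If only the bases that Ugt1a1 holds alone could be counted, the same reads would give it 393.8 ± 118.4 CPM per kb in HFD PCN and 273.5 ± 26.3 in Chow, above Ugt2b34, so the rank of these genes depends on how shared exons were counted.

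Within the Ugt1a locus, Ugt1a7c took 51.4% ± 1.996 of the Ugt1a counts in HFD PCN, 50.5% ± 8.11 in HFD Vehicle, 54.5% ± 2.79 in HFD and 48.4% ± 3.33 in Chow. Ugt1a1 took 37.0% ± 1.43 in HFD PCN, 33.2% ± 3.29 in HFD Vehicle, 31.4% ± 1.48 in HFD and 37.2% ± 3.67 in Chow (SD, n = 3 each). The share of Ugt1a1 was 29.7% to 32.5% in HFD libraries and 33.1% to 40.3% in Chow libraries, without overlap and with no test of the share. These Ugt1a shares depend on how shared reads were counted. The part of the Ugt1a7c counts that came from its 3′ end was not measured. Among the 5 Ugt2 members, Ugt2b34 took 80.6% ± 1.87 of the counts in HFD PCN, 76.4% ± 3.78 in HFD Vehicle, 80.1% ± 2.44 in HFD and 77.5% ± 1.08 in Chow.

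The comparison of HFD PCN with HFD Vehicle asks what PCN did to UGT genes in duodenum of mice on HFD. All 10 members had higher fitted levels after PCN, with log2 fold changes of 0.42 to 1.43 and a median of 0.99, against a median of -0.01 over all genes, of which 49% had a positive value. By edgeR's quasi-likelihood test 0 of the 10 passed, where 0.0621% of 16110 genes were called and 0.0497% called higher. At an unadjusted p under 0.05 there were 8 members higher, against 6.46% of all genes. On the scale of this comparison 8 members had groups that did not overlap, against 9.84% of all genes, and on the scale over 12 libraries 7, since Ugt2b36 had 8.73 CPM in HFD PCN 5 and 8.75 CPM in HFD Vehicle 55.

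The log2 fold change of Ugt1a1 was 1.11 (SE 0.26, 95% interval 0.52 to 1.70, adjusted p = 0.231 by edgeR), or 2.16-fold higher. Ugt2b5 had the largest, 1.43 (SE 0.43, interval 0.46 to 2.40), and Ugt2b34 had 1.34 (SE 0.45, interval 0.33 to 2.36). The intervals of these Ugt2 genes are wide, and their HFD Vehicle libraries differ by several fold. Ugt2b35 had 1.06 (SE 0.29), Ugt2a3 0.99 (SE 0.32), Ugt2b36 0.99 (SE 0.40), Ugt1a7c 0.95 (SE 0.34) and Ugt1a6a 0.95 (SE 0.30). Ugt1a9 at 0.69 (SE 0.48) and Ugt1a6b at 0.42 (SE 0.28) had intervals that include 0. The edgeR adjusted p of the 10 members ran from 0.231 to 0.431.

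Other tests on the same libraries called more of the members higher. DESeq2 called 4, Ugt1a1, Ugt2b5, Ugt2b35 and Ugt2b34 (adjusted p 0.0146, 0.0375, 0.0438 and 0.0447), where it called 0.608% of all genes higher, and limma-voom with library quality weights called 9, all but Ugt1a9, where it called 19.9% of all genes higher. In the authors' deposited table Ugt1a1 had a log2 fold change of 1.03 and an adjusted p of 0.0253, the only member under 0.05 there. In the authors' deposited table Ugt2b35 had 0.96 (adjusted p 0.0813), Ugt2b5 1.17 (adjusted p 0.0869) and Ugt2b34 1.12 (adjusted p 0.102).

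Leaving out single libraries moved the sizes but not the direction. Without HFD Vehicle 55, the library with the highest UGT levels of its group, edgeR called 8 members higher, but also 22% of all genes in either direction, and the median log2 fold change was 1.27. Without HFD Vehicle 23 the median was 0.76, with 0 members and 0.0302% of all genes called by edgeR. Without HFD Vehicle 23 and 50 together the median was 0.57, from HFD Vehicle 55 as the only vehicle library. When both were left out Ugt1a1 came to 0.96, while Ugt2b36 came to 0.12 and Ugt2b5 to 0.58.

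**Figure D3:**
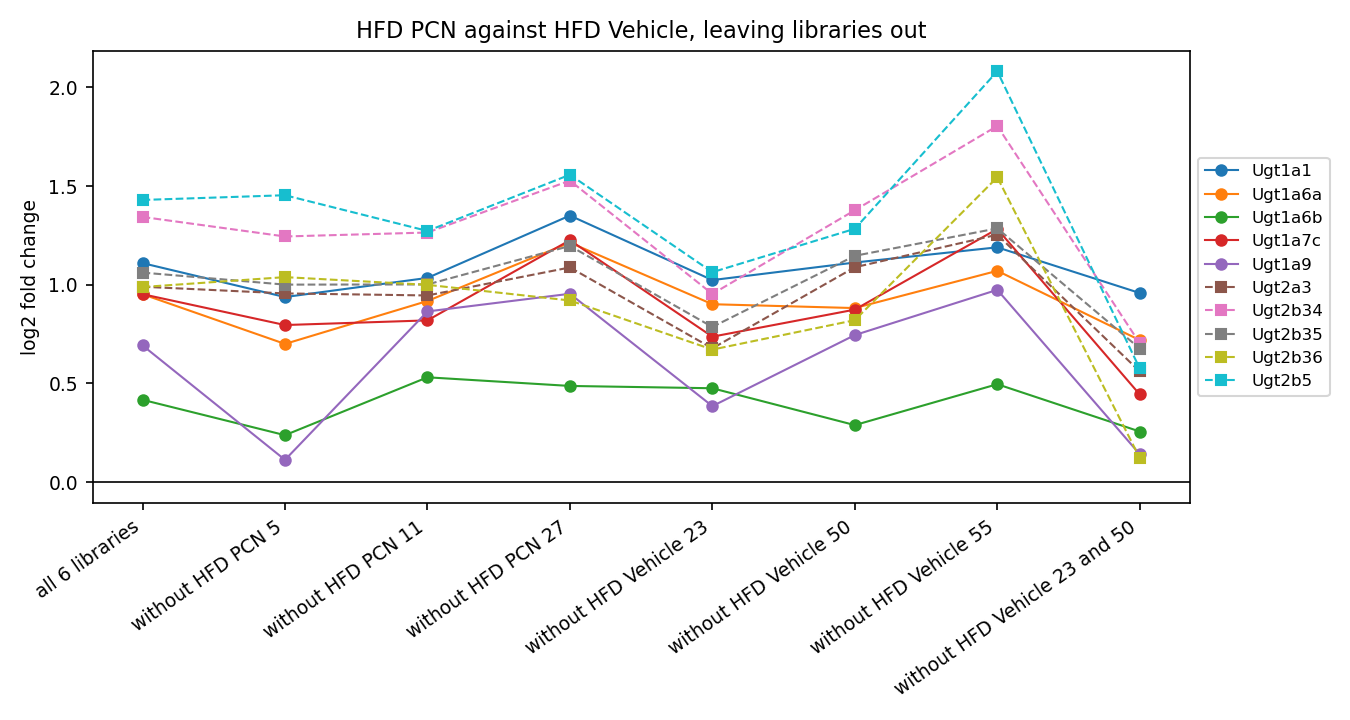
Log2 fold change of HFD PCN against HFD Vehicle for the 10 Ugt genes (circles and solid lines for Ugt1a, squares and broken lines for Ugt2) with all 6 libraries and with libraries left out. All values are above 0, and those of Ugt2b5 span 0.58 to 2.08.

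Cell markers differed between these groups as well. Of 12 markers of mature enterocytes, the absorptive cells in which intestinal UGTs are chiefly made, all 12 had positive log2 fold changes, with a median of 0.45 and 0 called by edgeR (2 at an unadjusted p under 0.05, 0 by DESeq2, 4 by limma-voom). Their summed level was 47660 to 49360 CPM in HFD PCN and 16940 to 46850 CPM in HFD Vehicle, lowest in HFD Vehicle 23. Of 7 Paneth cell markers all 7 had negative log2 fold changes, and their sum was 275.6 to 589 CPM in HFD PCN and 583.7 to 2627 CPM in HFD Vehicle. The 6 fibroblast markers, also all negative, summed to 142.7 to 184.4 CPM in HFD PCN and 235.6 to 395.0 CPM in HFD Vehicle. The 6 smooth muscle markers, again all negative, summed to 553.5 to 670 CPM in HFD PCN and 620.1 to 1147 CPM in HFD Vehicle. None of the markers on these 4 lists was at 0 in any library. The 8 tested acinar markers were all negative too. Their sums were 1.90 to 17.4 CPM in HFD PCN, where 1 to 4 of the 9 listed were at 0. In HFD Vehicle the sums were 10.6 to 77.3 CPM, and 0 to 2 were at 0. On the Paneth, fibroblast, smooth muscle and acinar lists edgeR called 0. Lower at an unadjusted p under 0.05 were 7, 4, 5 and 4 of these markers, against 11.5% of all genes. In that order DESeq2 called 5, 2, 0 and 1 lower (1.32% of all genes), and limma-voom 7, 4, 6 and 2 (20.7%). Enteroendocrine markers were negative for 6 of 6 (median -0.47), with 2 lower at an unadjusted p under 0.05. DESeq2 called 0 of these 6 and limma-voom 2 lower. Leukocyte, crypt and goblet markers went both ways. In whole tissue, fewer cells of a type and less RNA per cell cannot be told apart.

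Without HFD Vehicle 23 and 50, an alternative chosen after seeing the data for these lists, HFD Vehicle 55 was left alone in its group. The median log2 fold change was then 0.15 for enterocyte markers (8 of 12 positive) and -0.68 for Paneth markers. It was -0.62 for fibroblast, -0.08 for smooth muscle and 0.27 for acinar markers.

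The UGT level was also set against the enterocyte markers, a ratio chosen after the values were seen. The 10 members together came to 2370, 2333 and 1554 CPM in HFD PCN, 445.7, 918.9 and 1316 CPM in HFD Vehicle, 812.6, 1006 and 1046 in HFD and 1290, 1124 and 1268 CPM in Chow. Per 1000 CPM of the 12 enterocyte markers this was 49.7, 48.4 and 31.5 in HFD PCN, 26.3, 23.5 and 28.1 in HFD Vehicle, 27.5, 21.1 and 21.03 in HFD and 33.1, 32.1 and 30.0 in Chow. HFD Vehicle 23, lowest in the plain sum, lay within its group in the ratio. Every HFD PCN library was above every HFD Vehicle and HFD library in the ratio, and every Chow library was above every HFD library, while HFD PCN 27 lay within the Chow range. The marker sums that the ratio divides by also differed between groups, at 29560 to 49740 CPM in HFD and 35000 to 42250 CPM in Chow. The ratio describes the libraries without a test. Neither the part of enterocytes nor that of other cell types in the UGT differences was tested.

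**Figure D4:**
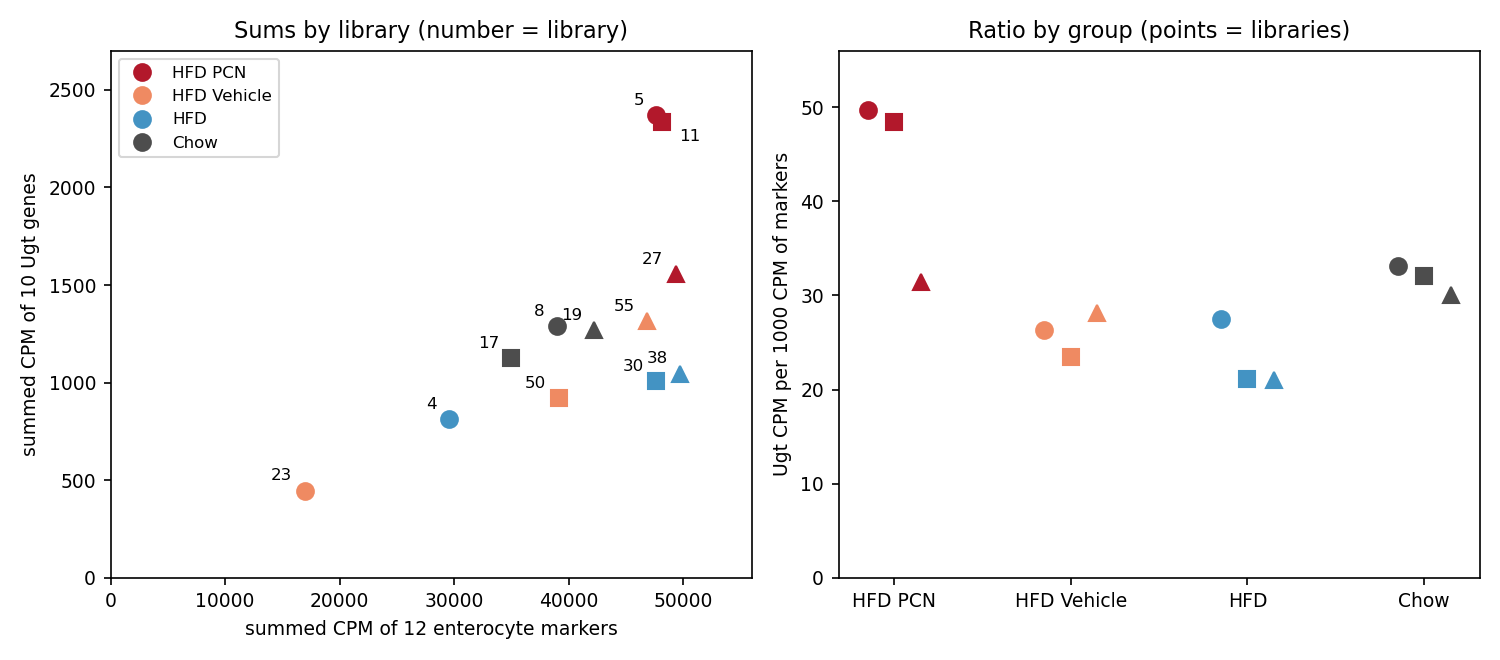
Left, summed CPM of the 10 Ugt genes against summed CPM of 12 enterocyte markers, 1 point per library with its number, in HFD PCN, HFD Vehicle, HFD and Chow. Right, the ratio of the sums per 1000 CPM of markers, where HFD PCN lies at 31.5 to 49.7 and HFD Vehicle at 23.5 to 28.1.

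The comparison of HFD PCN with HFD sets PCN injection against no listed treatment on the same diet. It shares the HFD PCN libraries with the comparison against vehicle, so the 2 are not independent. Ugt2a3, Ugt2b5 and Ugt2b35 rose in HFD PCN by edgeR's test, where 0.325% of 15982 genes were called and 0.244% called higher. Ugt2a3 averaged 166.4 ± 17.1 CPM in HFD PCN and 75.4 ± 15.3 CPM in HFD (SD, n = 3 each), a log2 fold change of 1.13 (SE 0.19, adjusted p = 0.0298 by edgeR). Ugt2b5 averaged 62.6 ± 11.98 CPM in HFD PCN and 26.2 ± 6.79 CPM in HFD, a log2 fold change of 1.23 (SE 0.21, adjusted p = 0.0345 by edgeR). Ugt2b35 averaged 85.6 ± 12.9 CPM in HFD PCN and 42.1 ± 5.36 CPM in HFD, a log2 fold change of 1.02 (SE 0.18, adjusted p = 0.0371 by edgeR).

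Ugt1a1 came close, at 151.6 ± 45.6 CPM in HFD PCN and 67.0 ± 8.19 CPM in HFD, with a log2 fold change of 1.17 (SE 0.23, adjusted p = 0.0546 by edgeR). Ugt2b34 had 1.17 (SE 0.26, adjusted p = 0.0838 by edgeR). All 10 members had positive log2 fold changes, of 0.39 to 1.23 with a median of 1.05, against 0.00 over all genes, of which 50.1% had a positive value. At an unadjusted p under 0.05 there were 8 members higher, against 8.38% of all genes. The groups did not overlap for 6 members, Ugt1a1 and the 5 Ugt2 genes, against 11.4% of all genes. The Ugt1a6a, Ugt1a6b, Ugt1a7c and Ugt1a9 libraries of HFD PCN overlapped those of HFD.

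These calls were lost without any 1 of 4 libraries. Without HFD PCN 5, HFD PCN 11, HFD 4 or HFD 30, edgeR called 0 members and 0.00612% to 0.176% of all genes. Without HFD PCN 27 it called 7 members and 1.36% of all genes, and without HFD 38 it called 5 members and 2.75% of all genes. DESeq2 called 7 members (1.53% of all genes higher) and limma-voom 6 (0.951% of all genes higher), and the edgeR fit of all 12 libraries called 1, Ugt1a1 (adjusted p = 0.0459). Over these alternatives the adjusted p of Ugt2a3 ran to 0.182, of Ugt2b35 to 0.193 and of Ugt2b5 to 0.238, with log2 fold changes of 1.002 to 1.29, 0.92 to 1.14 and 1.08 to 1.44. Fibroblast markers had negative log2 fold changes for 5 of 6, with Col1a1 and Col3a1 called lower by edgeR, and summed to 142.7 to 184.4 CPM in HFD PCN and 284.4 to 370.2 CPM in HFD. Enterocyte markers had a median log2 fold change of 0.19, with 9 of 12 positive and 0 called (2 at an unadjusted p under 0.05, 0 by DESeq2 and by limma-voom). Markers of crypt stem and cycling cells were positive for 7 of 7, with a median of 0.47, 0 called by edgeR (2 at an unadjusted p under 0.05, 0 by DESeq2 and by limma-voom) and sums of 547.5 to 825.7 CPM in HFD PCN and 230.4 to 557.7 CPM in HFD. The part of these cell types in the UGT differences was not tested.

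The comparison of HFD with Chow asks what the diet did. All 10 members had lower fitted levels on HFD, with log2 fold changes of -0.77 to -0.12 and a median of -0.43, against 0.00 over all genes, of which 49.5% had a negative value. By edgeR 0 of the 10 passed, where 0.0655% of 15278 genes were called and 0.0589% called lower. At an unadjusted p under 0.05 there were 4 members lower, Ugt1a1, Ugt1a6a, Ugt1a9 and Ugt2a3, against 4.59% of all genes. For 3 members, Ugt1a1, Ugt1a9 and Ugt2a3, the groups did not overlap, against 8.16% of all genes. This comparison shares no library with that of HFD PCN against HFD Vehicle.

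Ugt2a3 averaged 75.4 ± 15.3 CPM in HFD and 126.5 ± 13.7 CPM in Chow (SD, n = 3 each), a log2 fold change of -0.73 (SE 0.18, adjusted p = 0.226 by edgeR). Ugt1a1 averaged 67.0 ± 8.19 CPM in HFD and 105.3 ± 10.1 CPM in Chow, a log2 fold change of -0.64 (SE 0.15, adjusted p = 0.226 by edgeR). Both were lower in 3 of 3 HFD libraries than in any Chow library. DESeq2 called Ugt2a3 (adjusted p 0.0460), where it called 0.52% of all genes lower, and gave Ugt1a1 an adjusted p of 0.0588, and limma-voom called none of the members. In the authors' deposited table Ugt1a1 had -0.58 (adjusted p 0.0713) and Ugt2a3 -0.65 (adjusted p 0.0817).

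Of the others, Ugt1a9 stood at a log2 fold change of -0.77 (SE 0.33) and Ugt1a6a at -0.74 (SE 0.32). Ugt2b36 at -0.56 (SE 0.30), Ugt2b35 at -0.29 (SE 0.16), Ugt2b34 at -0.28 (SE 0.20), Ugt1a7c at -0.23 (SE 0.16), Ugt1a6b at -0.18 (SE 0.27) and Ugt2b5 at -0.12 (SE 0.21) had intervals that include 0. The sign of Ugt2b5 turned to 0.03 without HFD 4. Enterocyte markers went both ways, with 7 of 12 positive, a median of 0.12 and values of -1.29 to 0.48. Of these 12, 1 was lower at an unadjusted p under 0.05 and DESeq2 called 1 lower. Their sums were 29560 to 49740 CPM in HFD and 35000 to 42250 CPM in Chow. Crypt stem and cycling markers had negative log2 fold changes for 7 of 7 (median -0.49), with sums of 230.4 to 557.7 CPM in HFD and 441.2 to 690.0 CPM in Chow. Paneth markers were negative for 6 of 6 tested (median -0.46), with sums of 253.1 to 700.5 CPM in HFD and 348.2 to 781.9 CPM in Chow. Pancreatic acinar markers had negative log2 fold changes for 8 of 8, with sums of 3.95 to 21.6 CPM in HFD and 44.8 to 109.9 CPM in Chow. Of the 9 listed acinar markers 1 to 3 were at 0 in HFD libraries and 0 in Chow libraries. Leukocyte markers were negative for 6 of 7 (median -0.58), with sums of 612.6 to 768.1 CPM in HFD and 707 to 1344 CPM in Chow. Lower at an unadjusted p under 0.05 were 7 acinar, 4 leukocyte, 1 Paneth and 1 crypt marker, against 4.59% of all genes. There was 1 leukocyte marker higher. DESeq2 called 2 acinar and 1 leukocyte marker lower, against 0.52% of all genes. EdgeR and limma-voom called 0 markers on these lists. The part of these cell types in the UGT differences was not tested.

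**Figure D5:**
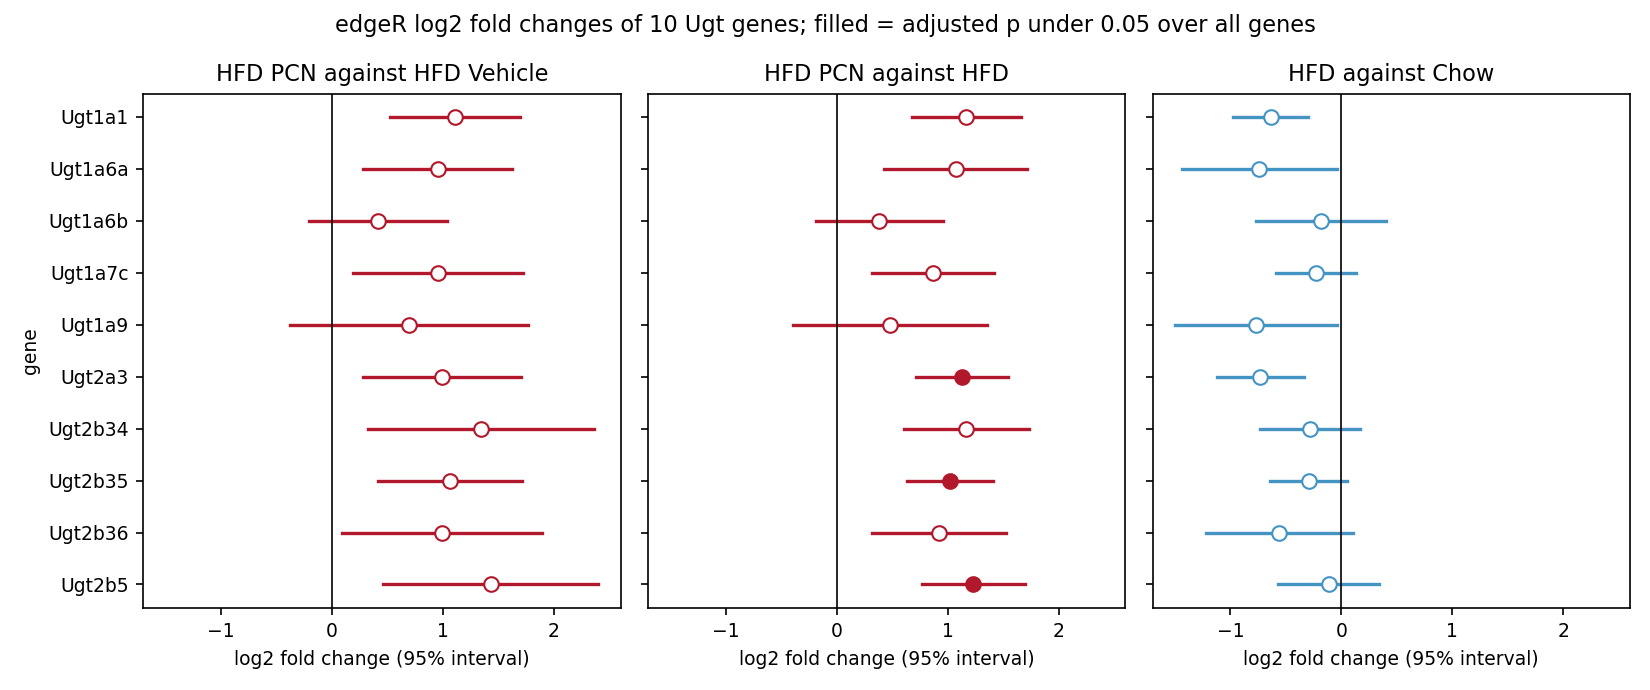
Log2 fold changes of the 10 Ugt genes with 95% intervals from edgeR, for HFD PCN against HFD Vehicle, HFD PCN against HFD, and HFD against Chow. Filled points passed at an adjusted p under 0.05 over all genes, which are Ugt2a3, Ugt2b35 and Ugt2b5 against HFD. All points lie above 0 in the first 2 panels and below 0 in the last.

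HFD PCN against Chow shows how far the PCN levels stood from those on regular chow. It shares libraries with each comparison above. Ugt2b5 rose, at 62.6 ± 11.98 CPM in HFD PCN and 29.1 ± 4.50 CPM in Chow (SD, n = 3 each), a log2 fold change of 1.11 (SE 0.17, adjusted p = 0.0255 by edgeR). It was the 1 member of 10 called, where 0.34% of 15300 genes were called and 0.261% called higher. Positive log2 fold changes were found for 9 members and 48.8% of all genes, with medians of 0.45 and -0.01, and 6 members were higher at an unadjusted p under 0.05, against 6.28% of all genes. Ugt2b34 had 0.87 (SE 0.18, adjusted p = 0.0714 by edgeR) and Ugt2b35 0.71 (SE 0.15, adjusted p = 0.0719 by edgeR), and DESeq2 and limma-voom each called these 2 and Ugt2b5, where they called 1.58% and 1.01% of all genes higher. The groups did not overlap for these 3 and Ugt2a3 (0.39, SE 0.13), against 9.08% of all genes.

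Ugt2b36 had 0.35 (SE 0.21). The log2 fold changes of the Ugt1a members against Chow were 0.63 (SE 0.25) for Ugt1a7c, 0.52 (SE 0.21) for Ugt1a1, 0.32 (SE 0.35) for Ugt1a6a, 0.19 (SE 0.23) for Ugt1a6b and -0.29 (SE 0.38) for Ugt1a9. All 5 Ugt1a members overlapped between the groups, and 0 were called by edgeR (2, Ugt1a1 and Ugt1a7c, at an unadjusted p under 0.05, and 0 by DESeq2 and limma-voom). Whether the Ugt2 members differed from the Ugt1a members in response was not tested. Ugt2b5 was called without HFD PCN 27 but not without any other 1 library (adjusted p 0.0591 to 0.135), nor in the fit of all 12 libraries (0.707). Without HFD PCN 27, 5 members and 2.16% of all genes were called and the median was 0.65. Enterocyte markers had positive log2 fold changes for 10 of 12 (median 0.27), with 0 called by edgeR (5 higher and 1 lower at an unadjusted p under 0.05, 4 higher by DESeq2, 2 higher by limma-voom), and the 8 tested acinar markers were all negative, with sums of 1.90 to 17.4 CPM in HFD PCN and 44.8 to 109.9 CPM in Chow. Enteroendocrine markers were positive for 6 of 6 (median 0.56), with 2 called by DESeq2 and 2 by limma-voom. Leukocyte markers were negative for 7 of 7 (-0.59), fibroblast for 6 of 6 (-0.45) and Paneth for 6 of 6 tested (-0.81). DESeq2 called 1 leukocyte and 1 Paneth marker lower, limma-voom 1 leukocyte marker, and edgeR 0 on these lists. Crypt, goblet and smooth muscle markers went both ways. What part these cell types had in the UGT differences was not tested.

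HFD Vehicle and HFD lay close to each other for the members. The log2 fold changes of HFD Vehicle against HFD were -0.22 to 0.13 with a median of -0.05, against 0.01 over all genes, and 3 were positive and 7 negative. By edgeR 0 members and 0 of 16255 genes were called (0%), with 0 members and 953 genes (5.86%) at an unadjusted p under 0.05, and DESeq2 and limma-voom called 0 members. No member had groups without overlap, against 4.65% of all genes higher and 5.27% lower. The intervals were wide, at -1.18 to 0.82 for Ugt2b34 and -0.38 to 0.50 for Ugt1a1, so a difference within these bounds was not detectable. The median was 0.16 without HFD Vehicle 23 and 0.38 without HFD Vehicle 23 and 50. Paneth markers were positive for 7 of 7 (median 2.20, 3 called by DESeq2 and 1 by limma-voom). Also all positive were 7 crypt (0.68), 6 enteroendocrine (0.88), 6 smooth muscle (0.31) and 8 tested acinar markers (1.86). Enterocyte markers were negative for 11 of 12 (-0.25) and leukocyte markers for 7 of 7 (-0.53). What part these cell types had in the UGT levels was not tested. Against Chow, a comparison added after the data were seen, HFD Vehicle had a median log2 fold change of -0.53 over the members, with 10 of 10 negative and 0 called by edgeR (2 at an unadjusted p under 0.05, 0 by DESeq2 and 2 by limma-voom), where edgeR called 0.013% of 15327 genes. Of all genes, 49.6% had a negative value, 4.06% were lower at an unadjusted p under 0.05 and 6.62% were called lower by limma-voom. The groups did not overlap for 3 members on the scale of this comparison and for 2 on that over 12 libraries, against 7.99% of all genes lower. Without HFD Vehicle 23 and 50 that median was -0.01.

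Of 12 other Ugt genes, 7 were in both tables and 3, Ugt1a2, Ugt1a5 and Ugt2b38, had enough counts to be tested. These 3 had log2 fold changes of 0.08 to 0.48 in HFD PCN against HFD Vehicle, with a median of 0.18, and 0 were called in any comparison by edgeR. Without HFD Vehicle 23 and 50, where 4 of the list had enough counts and 3 of them were positive, the median was 1.04. Ugt1a2 averaged 8.64 ± 3.45 CPM in HFD PCN and 7.47 ± 4.36 CPM in HFD Vehicle (SD, n = 3 each), scaled within that comparison like the other values of this and the following paragraphs.

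The donor sugar UDP-glucuronic acid is made in the cytosol and carried into the endoplasmic reticulum. Of 12 genes listed for its making, transport and use, 9 had positive log2 fold changes in HFD PCN against HFD Vehicle. Their median was 0.41, with 0 called by edgeR (3 higher and 1 lower at an unadjusted p under 0.05, 0 by DESeq2, 5 higher and 1 lower by limma-voom). The list holds Uxs1 and Nudt14, which use up UDP-glucuronic acid and its precursor UDP-glucose, so its median does not measure supply alone. Slc35d1, a carrier of UDP-glucuronic acid into the endoplasmic reticulum, averaged 83.9 ± 10.5 CPM in HFD PCN and 50.4 ± 15.1 CPM in HFD Vehicle (log2 fold change 0.74, SE 0.25, adjusted p = 0.240 by edgeR). Hk1, the hexokinase that phosphorylates glucose, averaged 15.4 ± 2.44 CPM in HFD PCN and 32.1 ± 14.9 CPM in HFD Vehicle (log2 fold change -1.08, SE 0.33, adjusted p = 0.231 by edgeR). Against HFD, whose libraries had 17.7 ± 1.45 CPM of Hk1, its log2 fold change in HFD PCN was -0.14 (SE 0.19). With HFD Vehicle 23 and 50 left out, Hk1 had -0.25 and Slc35d1 0.31 against HFD Vehicle, and the list's median was 0.27.

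A list of 8 genes around export and cleavage of glucuronides also held the uptake carrier Slco2b1 and the carboxylesterases Ces1d and Ces1e. Of the 8, 5 had positive log2 fold changes in HFD PCN against HFD Vehicle. Their median was 0.26, with 0 called by edgeR (3 higher at an unadjusted p under 0.05, 0 by DESeq2, 3 by limma-voom). The median was 0.10 without HFD Vehicle 23 and 50. Abcc2, the apical pump for glucuronides, averaged 1739 ± 461 CPM in HFD PCN and 982.6 ± 175.9 CPM in HFD Vehicle, without overlap (log2 fold change 0.82, SE 0.32, adjusted p = 0.252 by edgeR). Ces1d, a carboxylesterase listed with them, rose against HFD (log2 fold change 2.25, SE 0.17, adjusted p = 0.000236 by edgeR) and against Chow (2.50, SE 0.22, adjusted p = 0.00285 by edgeR). Against HFD Vehicle, whose libraries averaged 42.9 ± 7.54 CPM beside 60.8 ± 3.64 CPM in HFD PCN, Ces1d had 0.50 (SE 0.20, adjusted p = 0.256 by edgeR). HFD Vehicle was itself above HFD in Ces1d, with means of 43.7 ± 8.18 CPM in HFD Vehicle, against 12.9 ± 1.75 CPM in untreated HFD, without overlap (log2 fold change 1.75, SE 0.23), which edgeR did not call (adjusted p = 0.552) and DESeq2 and limma-voom did (adjusted p = 1.05e-05 and 0.0362). Against Chow, HFD Vehicle had 2.01 (SE 0.28, adjusted p = 0.191 by edgeR).

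A list of 13 regulators of Ugt genes held transcription factors and Keap1, which is not one but holds back the factor NRF2 (Nfe2l2). Of the 13, 8 had positive log2 fold changes in HFD PCN against HFD Vehicle. Their median was 0.12, with 0 called by edgeR (1 higher and 2 lower at an unadjusted p under 0.05, 0 by DESeq2, 3 higher and 2 lower by limma-voom). The median was 0.15 without HFD Vehicle 23 and 50. Esrra, an orphan nuclear receptor, averaged 113.1 ± 36.3 CPM in HFD PCN and 175.2 ± 38.8 CPM in HFD Vehicle (log2 fold change -0.63, SE 0.28, adjusted p = 0.275 by edgeR), and -0.26 without those libraries.

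For scale, 15 other genes of drug metabolism were tested in HFD PCN against HFD Vehicle, of which 5 rose by edgeR (Ces2a, Cyp2c29, Cyp2c55, Ephx1 and Gstm1). The median log2 fold change of the 15 was 1.70, beside 0.99 for the UGT members. Leaving out HFD Vehicle 23 and 50, with HFD Vehicle 55 alone in its group, the median was 1.56 and Ces2a had 3.62. Ces2a, a carboxylesterase, averaged 1248 ± 487 CPM in HFD PCN and 87.7 ± 19.5 CPM in HFD Vehicle, or 14.2-fold higher (adjusted p = 0.0165 by edgeR). The UGT folds were between 1.34 for Ugt1a6b and 2.69 for Ugt2b5. Against HFD 8 of the 15 rose (Abcb1a, Ces2a, Cyp2b10, Cyp2c29, Cyp3a11, Cyp3a25, Ephx1 and Gstm1), and against Chow 5 rose (Abcb1a, Ces2a, Cyp3a11, Cyp3a25 and Gclc). Gclc was not higher in HFD PCN than in the other HFD groups, with -0.17 against HFD and -0.13 against HFD Vehicle. HFD and HFD Vehicle were themselves above Chow in Gclc without overlap (1.37 and 1.32, neither called by edgeR). In HFD against Chow 3 of the 15 fell (Cyp2c29, Cyp2c55 and Gstm1).

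The genes whose pattern over the 12 libraries was most like that of Ugt2b34, out of 12062 compared by Pearson's r of log2 CPM, were Adtrp (0.988), Cyp2c68 (0.987), Gdi2 (0.979), Pgrmc1 (0.979) and Lpar1 (0.978). For Ugt1a7c they were Tomm70a (0.957), Lig4 (0.955), Dnm1l (0.952), Pcnp (0.951) and Alcam (0.949). The libraries share depth, groups and makeup, so these values describe likeness only.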

How the data were processed

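Of each gene the authors deposited raw counts of reads, in 2 tables of 6 libraries. HISAT2, HTSeq, DESeq2 and GRCm38 (mm10) are named in GEO, per the submitters' processing notes. Not given in the sources used here are their versions, the annotation release, the strand setting and the handling of shared reads. Each deposited table also carries the comparison the authors made: log2 fold change, p-value and adjusted p-value. Those are printed only in sentences that name the authors' deposited table.

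Comparisons across tables used genes in both. Each comparison was fitted on the whole table of its 6 libraries with edgeR 4.0.16 in R 4.3.3 (filterByExpr, TMM, robust quasi-likelihood F-test), and calls need a p under 0.05 after Benjamini-Hochberg adjustment over all genes. SEs were approximated by dividing the log2 fold change by the square root of F. Alternatives were RLE factors, no filter, DESeq2 1.42.0, limma 3.58.1 (voom with quality weights), all 12 libraries in 1 fit, removal of RNA that may be ribosomal, and leaving libraries out. HFD Vehicle against Chow was added after the data were seen. The fits were tested on simulated data. Each library's total count limits the precision of its CPM.

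The members, lists and rule were chosen with earlier results of these data known. The rule names every member, list genes called in any comparison, the 2 of each list with the smallest p in HFD PCN against HFD Vehicle, and 5 genes most like the Ugt1a and the Ugt2 member of highest CPM. Gene structure is from GENCODE M21, whose starts and ends matched the deposited ones for 10 of 10 members. A gene that the rule names is not reported here.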

Additional observations from a re-analysis of the deposited data

How the results depend on the processing

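No paired analysis was possible because the groups share no replicate numbers. With 1 library left out at a time, the number of members called by edgeR was 0 to 0 for HFD against Chow, 0 to 8 for HFD PCN against HFD Vehicle, 0 to 7 for HFD PCN against HFD, 0 to 5 for HFD PCN against Chow and 0 to 0 for both HFD Vehicle comparisons. The median log2 fold change of the members was then -0.52 to -0.35 for HFD against Chow, 0.76 to 1.27 for HFD PCN against HFD Vehicle, 0.91 to 1.18 for HFD PCN against HFD, 0.38 to 0.65 for HFD PCN against Chow, -0.36 to 0.16 for HFD Vehicle against HFD and -0.81 to -0.27 for HFD Vehicle against Chow. The genes called over all tested were 4 to 63 (10 with all libraries) for HFD against Chow, 0 to 3697 (10) for HFD PCN against HFD Vehicle, 1 to 452 (52) for HFD PCN against HFD, 8 to 349 (52) for HFD PCN against Chow, 0 to 260 (0) for HFD Vehicle against HFD and 0 to 1305 (2) for HFD Vehicle against Chow. In the same order the shares of genes tested were 0.0246% to 0.421%, 0% to 22%, 0.00612% to 2.75%, 0.0526% to 2.16%, 0% to 1.54% and 0% to 7.86%. The log2 fold change of Ugt2b5 in HFD against Chow was -0.309 to 0.028, positive without HFD 4, and that of Ugt1a9 in HFD PCN against HFD was -0.11 to 0.75, negative without HFD PCN 5.

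Percentages in this paragraph are of all genes tested in that setting. With no filter on low counts edgeR called 6 members and 843 genes (2.93%) for HFD PCN against HFD Vehicle. For HFD PCN against HFD it called 8 and 746 (2.9%), and for HFD PCN against Chow 3 and 261 (1.02%). For HFD against Chow it called 1 (Ugt2a3) and 351 (1.25%). HFD Vehicle against HFD and against Chow had 0 members and 1 and 16 genes called (0.00387% and 0.0622%). DESeq2 called 4 members and 339 genes (1.93%), 7 and 403 (3.04%), 3 and 258 (2.2%), and 1 and 134 (0.893%) in the same order of the first 4. In the last 2 it called 32 and 106 genes (0.18% and 0.615%). Limma-voom with quality weights called 9 members and 6538 genes (40.6%) for HFD PCN against HFD Vehicle. It called 6 and 420 (2.63%) for HFD PCN against HFD and 3 and 245 (1.6%) for HFD PCN against Chow. It called 16 genes (0.105%) for HFD against Chow and 66 (0.406%) for HFD Vehicle against HFD. For HFD Vehicle against Chow it called 2 members and 1921 genes (12.5%). The fit of all 12 libraries called 34 genes (0.202%) for HFD PCN against HFD Vehicle and 1 member and 29 genes (0.172%) for HFD PCN against HFD. It called 0 members and 15 genes (0.0891%) for HFD PCN against Chow. For HFD against Chow, HFD Vehicle against HFD and HFD Vehicle against Chow it called 2, 1 and 4 genes (0.0119%, 0.00594% and 0.0238%). Without RNA that may be ribosomal 4 genes (0.0254%) were called for HFD PCN against HFD Vehicle. Without HFD Vehicle 23 and 50 it was 2 genes, and 6 and 11 for HFD Vehicle against HFD and against Chow. The cause of these moves was not tested. The members Ugt1a9, Ugt1a6b and Ugt2b36, with as few as 15, 32 and 19 reads in a library, are those that depth limits most.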
